A study of Danio rerio with 32 samples.

Results

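The collagen genes are the 47 rows, of 16825 in the deposited count table, whose Entrez gene ID belongs to a zebrafish gene with a symbol made of col and a number. They were sorted by collagen type into 10 fibrillar genes, 6 genes of type IV, the network collagen of basement membranes, and 31 others. Transcripts were counted in 32 pools of whole larvae at 7 d post fertilization, each of 10 larvae, in 8 groups of 4 pools. The WT, crkeap1a, crkeap1b and crkeap1a/b groups were wild type larvae and larvae injected at the one-cell stage with Cas9 and guides against keap1a, keap1b or both, the zebrafish paralogs of Keap1, which holds down the transcription factor Nrf2. Such larvae (crispants) are mosaics of edited and unedited cells. Bach1 DKO larvae carried knockout mutations of bach1a and bach1b, which encode a repressor that competes with Nrf2 for DNA, and Nrf2 KO larvae carried a knockout of Nrf2a (nfe2l2a). Per the study's methods, the Bach1 DKO line combines stop mutations of both genes made by CRISPR/Cas9, and the Nrf2 KO line carries the fh318 allele. Each line was profiled without Keap1 editing and after injection against both Keap1 paralogs, giving a Bach1 DKO crkeap1a/b group and a Nrf2 KO crkeap1a/b group. Whether control larvae had any injection is not stated in the sources used here. Clutch siblings served as controls per the methods, but the labels name no clutch or batch. Between a mutant line and WT larvae, effects of the mutation, of the line and of a batch cannot be told apart.

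Collagens are secreted or membrane proteins built from triple helices. Fibrillar collagens form the cross-striated fibres of bone, skin, tendon and cartilage, with type I leading in bone and skin and types II and XI in cartilage. Type IV forms the sheet-like network of basement membranes. FACIT collagens, such as type IX on cartilage fibrils, sit on the surface of other fibrils, while types VI, VII, VIII and X form beaded filaments, anchoring fibrils and short-chain networks. In fish larvae of this age the skin, the notochord sheath, the fin folds and the cartilages of the head are the known main sources of collagen.

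Total counts per library ran from 3464165 to 4712448, and the collagens made up 0.129% to 0.299% of the counts in rows with a gene ID. A floor of 3 counts corresponded to 0.962 to 1.96 CPM (counts scaled to the TMM-adjusted library size over rows with an ID). The floor covers counting error only. The edited genes give no firm check on the labels, since an edit need not change the amount of transcript. The keap1a gene was at 14.5 to 19.5 CPM in WT and 15.8 to 25.3 CPM in crkeap1a pools. Levels of keap1b overlapped between crkeap1b (17.9 to 34.7 CPM) and WT (29.4 to 36.8 CPM), but ran at 52.5 to 130 CPM in crkeap1a. They were lower in Nrf2 KO crkeap1a/b (14.6 to 19.2 CPM) than in Nrf2 KO pools (29.0 to 34.2 CPM). On the first principal component of all tested rows, which held 22.8% of the variance, pools 2 and 3 of crkeap1a (-50.9 and -69) and pools 1, 3 and 4 of crkeap1b (-45.7 to -64.9) stood apart from the other single-crispant pools (-13.4 to -21.8). Some results in these groups are therefore also given without those pools, which leaves 1 crkeap1b pool. No source says that pools of a group came from separate clutches, so p-values measure the spread between pools. In whole larvae, fewer cells of a type and less RNA per cell cannot be told apart.

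A total of 38 collagens passed the filter on low counts: 8 fibrillar, 4 of type IV and 26 others. The remaining 9 genes, namely col4a3, col4a4, col5a3a, col5a3b, col8a1b, col13a1, col18a1b, col21a1 and col28a1a, had only 63 to 199 counts over all 32 libraries and were not tested. Several collagens well known in fish, among them col1a1a, col2a1a and col11a1a, matched no row by gene ID and were not analysed here. Whether rows without a gene ID hold them is not known. Because reads come from the 3′ end of transcripts, gene length does not enter. The order of genes by level is still only a rough guide, since how reads with several matches were counted is not known. The highest mean levels over the 32 pools were those of col5a1 at 290.8 CPM, col1a2 at 272 CPM, col1a1b at 249 CPM, col9a2 at 126 CPM and col2a1b at 94.2 CPM. All but col9a2, a type IX chain, are fibrillar. Among type IV genes the order was col4a1 (50.8 CPM), col4a6 (42.7 CPM), col4a5 (29.9 CPM) and col4a2 (20.1 CPM).

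**Figure D1:**
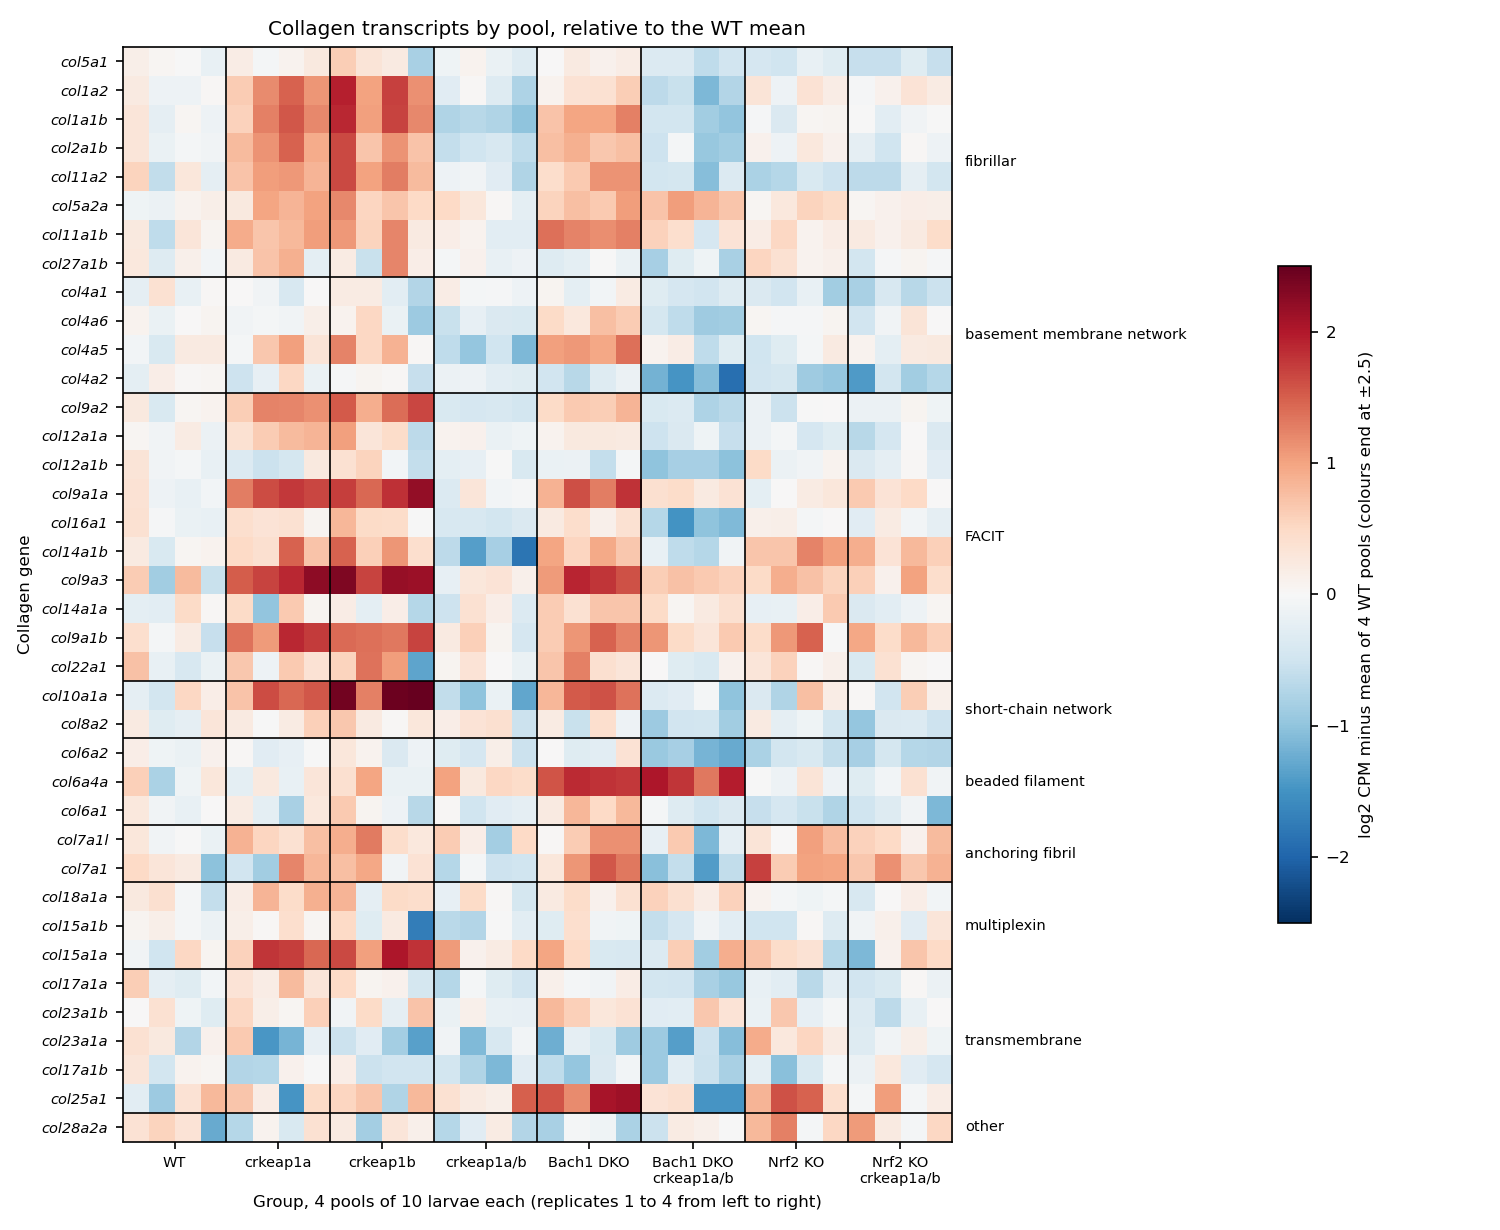
Each row is 1 of the 38 tested collagen genes, grouped by class and ordered by mean level within it, and each column 1 pool. Colour gives log2 CPM minus the mean of the 4 WT pools. The single crispants and Bach1 DKO larvae are red in types I, II, IX, X and XI, and the Bach1 DKO crkeap1a/b pools are blue in many classes, while col6a4a is red in both Bach1 DKO groups.

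Larvae edited in a single Keap1 paralog were compared with WT. With no batch or clutch named, effects of an edit and of a batch cannot be told apart here either. Of all 14108 rows tested, 1858 were called in crkeap1a, 2550 in crkeap1b and 747 in crkeap1a/b (adjusted p under 0.05, limma-voom). The paper instead reports few changed genes in the single crispants and widespread change in the double crispant. Its text gives no cutoff for these. In crkeap1a larvae 15 of 38 collagens were higher and 0 lower, against 6.19% of all 14108 rows tested that were higher and 6.98% that were lower (limma-voom, adjusted p under 0.05). By unadjusted p under 0.05 the counts were 17 and 0, against 14.2% and 15.1% of rows, and edgeR and DESeq2 each called 14 higher. For 15 collagens all crkeap1a pools lay above all WT pools and for 0 below, against 6.34% and 6.54% of all rows. In crkeap1b larvae 15 were higher and 0 lower, against 9.85% and 8.22% of all rows, and 16 and 0 by unadjusted p, against 16.5% and 16% of rows. Here 12 collagens had pools entirely above WT and 0 entirely below, against 5.98% and 5.87% of rows. The median log2 fold change of the collagens was 0.40 in crkeap1a and 0.42 in crkeap1b, while the medians over all rows were 0.01 and -0.003. Without the pools that stood apart, 11 of 45 tested collagens were higher in crkeap1a, and the share of all rows in that fit is not given. In crkeap1b 1 pool was left, so its count cannot be judged that way. Of the genes called with all pools, 13 were higher in both, but these comparisons share the WT pools.

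Type I collagen gives the plainest case. The gene col1a1b, which encodes the alpha 1 chain, was at 219, 152, 182 and 162.5 CPM in the WT pools. It was at 264.5, 425, 520 and 408 CPM in crkeap1a and at 658, 361, 573 and 407 CPM in crkeap1b. No crispant pool overlapped the WT range, and the log2 fold changes were 1.15 ± 0.17 (SE; adjusted p = 6.45e-05, limma-voom) and 1.45 ± 0.18 (adjusted p = 9.06e-07). Its partner chain gene col1a2 ran at 181 to 231 CPM in WT, 307 to 551 CPM in crkeap1a and 395 to 764 CPM in crkeap1b. The log2 fold changes of col1a2, 1.10 ± 0.18 and 1.45 ± 0.18, were close to those of col1a1b.

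Not every fibrillar gene moved. Called higher in both single crispants were 6 of the 8 tested: col1a1b, col1a2, col2a1b, col5a2a, col11a1b and col11a2. The exceptions were col5a1 and col27a1b. The col5a1 gene, whose type V chain takes part in starting type I fibrils, was at 345, 323, 310 and 273 CPM in WT and at 354, 302, 330 and 369 CPM in crkeap1a. These ranges overlap, and its log2 fold change was 0.12 ± 0.17. In crkeap1b, col5a1 spread from 178 CPM in pool 4 to 480 CPM in pool 1, with a log2 fold change of 0.09 ± 0.17. The other type V gene, col5a2a, rose by 0.79 ± 0.18 in crkeap1a and 0.75 ± 0.18 in crkeap1b on the log2 scale.

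The collagens of cartilage moved together. The 8 tested genes of types II, IX, X and XI, a grouping made after their values were seen and given as a description, were all called higher in crkeap1a, crkeap1b and Bach1 DKO larvae, with median log2 fold changes of 1.24, 1.49 and 1.27. Among the other 30 tested collagens the counts called higher were 7, 7 and 9, against 6.19%, 9.85% and 11.8% of all rows. The type IX gene col9a1a was at 29.4, 20.7, 19.9 and 21.4 CPM in WT pools and at 55.9, 71.4, 79.1 and 73.7 CPM in crkeap1a. It reached 77.2, 62.4, 81.9 and 106 CPM in crkeap1b. Every single-crispant pool was above every WT pool, and the fold changes were 1.62 ± 0.19 (adjusted p = 1.55e-06) and 1.81 ± 0.19 (adjusted p = 1.59e-07) on the log2 scale.

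The col9a3 gene was at 12.5, 3.91, 14.1 and 5.07 CPM in WT, from 23.8 to 39.7 CPM in crkeap1a and from 27.1 to 42.7 CPM in crkeap1b. Its log2 fold changes were 1.93 ± 0.28 and 2.16 ± 0.28 (adjusted p = 3.36e-05 and 2.02e-06). The second type IX alpha 1 gene, col9a1b, rose by 1.68 ± 0.33 and 1.605 ± 0.34. Type X collagen marks hypertrophic cartilage and, in zebrafish, also young bone. Its gene col10a1a was at 6.99, 5.87, 12.3 and 9.41 CPM in WT and at 14.1, 27.6, 23.99 and 25.9 CPM in crkeap1a. It was highest in crkeap1b, at 48.3, 21.2, 49.4 and 61.4 CPM, which gave the largest rise of any collagen there (2.26 ± 0.32, adjusted p = 8.24e-06). Without the pools that stood apart, the crkeap1b rise of col10a1a was 1.33 and no longer called.

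Several markers of cartilage cells moved in the direction of these collagens, and others did not. Shares of all rows higher were 6.19% in crkeap1a, 9.85% in crkeap1b, 3.35% in crkeap1a/b and 11.8% in Bach1 DKO larvae. After editing in Bach1 DKO larvae 11.7% of rows were lower. Of 7 tested chondrocyte genes, 4 were higher in crkeap1a, 4 in crkeap1b, 0 in crkeap1a/b and 6 in Bach1 DKO larvae, and 5 were lower in Bach1 DKO crkeap1a/b than in Bach1 DKO larvae. They include matn1, a cartilage matrilin (1.396 ± 0.30 in crkeap1a), and epyc, a small proteoglycan of cartilage (1.05 ± 0.17). Of the summed markers epyc was the largest part, averaging 89.5 CPM in WT, 186.5 CPM in crkeap1a and 257 CPM in crkeap1b. The marker acana averaged 12.98 CPM in WT and 10.25 CPM in crkeap1a. With editing in Bach1 DKO larvae sox9a went from 113 to 108 CPM and matn3a from 27.7 to 33.0 CPM on average. Summed chondrocyte markers ran at 183 to 229 CPM in WT, 291 to 404 CPM in crkeap1a, 331 to 536 CPM in crkeap1b and 164 to 196 CPM in crkeap1a/b. They were at 356 to 511 CPM in Bach1 DKO and 214 to 280 CPM in Bach1 DKO crkeap1a/b pools, and none of the 7 was at 0 counts in any library. Of 5 tested osteoblast markers 0 were higher in either single crispant, and alpl, bone alkaline phosphatase, was lower in crkeap1a (-0.83 ± 0.20). None was called in crkeap1a/b or Bach1 DKO larvae. So few osteoblast genes cannot be set apart from the shares of all rows called. After editing in Bach1 DKO larvae 2 osteoblast markers were lower, spp1 (-1.18 ± 0.34) and phex (-0.67 ± 0.20), and sp7 was higher (2.49 ± 0.54). The sp7 gene averaged 1.54 CPM before, near the detection floor, and 8.22 CPM after. Summed basal epidermis markers also ran high, at 529 to 1060 CPM in crkeap1a and 707 to 1506 CPM in crkeap1b against 230 to 349 CPM in WT, and low in crkeap1a/b at 94.4 to 137 CPM. Of that sum the keratin gene krt1-19e averaged 445.5 CPM in crkeap1a, 897 CPM in crkeap1b, 125 CPM in WT and 18.4 CPM in crkeap1a/b. Of 5 tested, 3 were higher in crkeap1a and 2 in crkeap1b. In crkeap1a/b 2 were lower, both keratins, against 1.94% of all rows. The marker itgb4 averaged 73.8 CPM in WT, 76.7 CPM in crkeap1a, 65.4 CPM in crkeap1b and 63.6 CPM in crkeap1a/b. The part of these cell type markers in the collagen results was not tested.

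**Figure D2:**
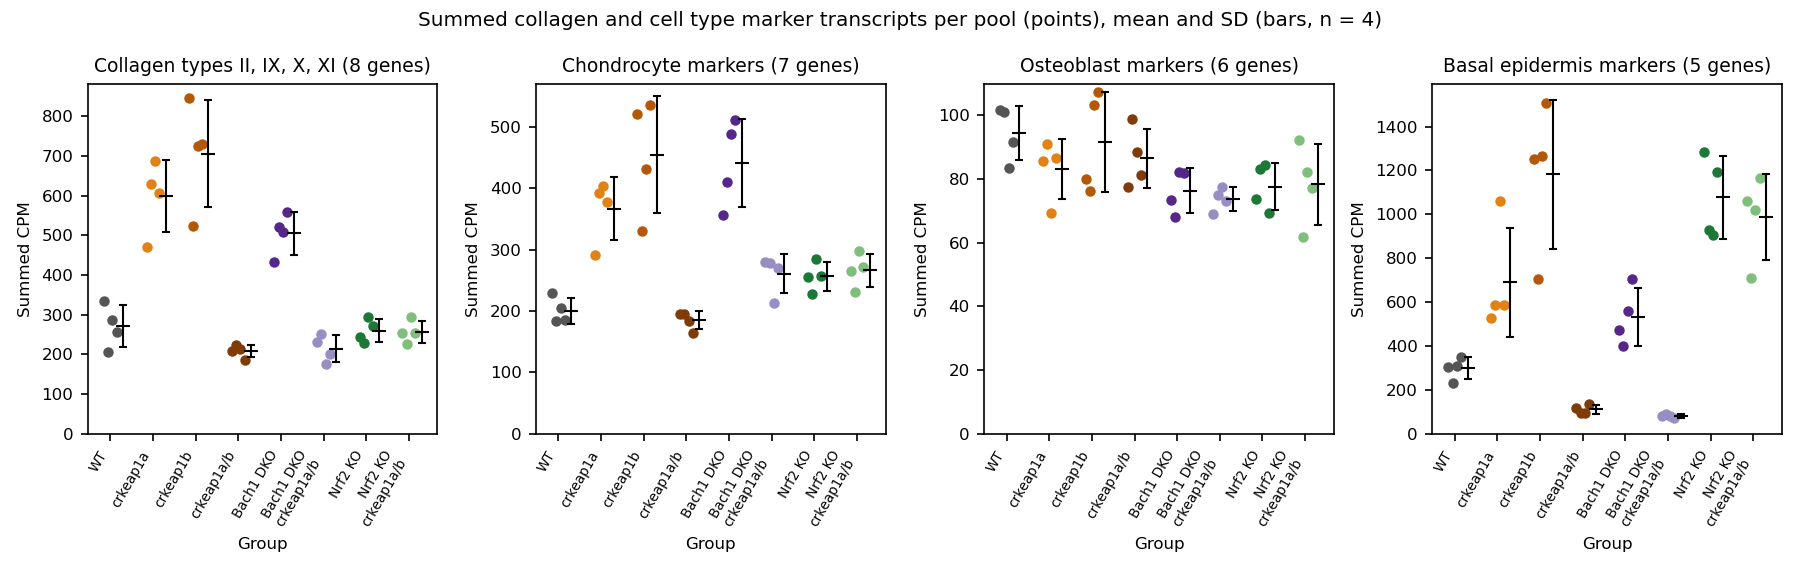
Points give the summed CPM of 1 pool, and bars the mean and SD of 4 pools, for the 8 cartilage collagens (types II, IX, X and XI) and for markers of chondrocytes, osteoblasts and basal epidermis. The collagen sum ran at 207 to 335 CPM in WT, 472 to 687 CPM in crkeap1a and 187 to 223 CPM in crkeap1a/b, and the chondrocyte sum was likewise higher in the single crispants and Bach1 DKO larvae than in WT pools, while the osteoblast sums overlapped WT in the single crispants.

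Of the 4 tested type IV genes, 0 were called in crkeap1a and 1, col4a5, was higher in crkeap1b. At the shares of all rows called higher, 6.19% and 9.85%, so few genes cannot be set apart from the background. The col4a1 gene, a chain of the widespread alpha 1 and alpha 2 network, was at 49.3, 75.9, 50.9 and 58.6 CPM in WT and at 57.9, 54.7, 43.4 and 58.3 CPM in crkeap1a. The groups overlap, and the log2 fold change of col4a1 was -0.11 ± 0.17 in crkeap1a and the same in crkeap1b. Its neighbour and partner col4a2 changed by -0.10 ± 0.19 and -0.10 ± 0.20. In contrast, col4a5 was at 23.2, 18.4, 28.5 and 28.6 CPM in WT and at 58.4, 35.0, 45.0 and 24.8 CPM in crkeap1b. Pool 4 of crkeap1b lay within the WT range, and the rise was 0.69 ± 0.23 (adjusted p = 0.0309).

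The classes were also described by their summed levels. The fibrillar sums leave out col1a1a, col2a1a, col5a2b, col11a1a, col24a1 and col27a1a, which matched no row, while no type IV gene is missing in this way. Summed fibrillar transcripts averaged 868 ± 99.4 CPM (SD, n = 4) in WT, 1514 ± 246 CPM in crkeap1a and 1764 ± 503 CPM in crkeap1b. Summed type IV transcripts averaged 161 ± 11.8, 165 ± 10.6 and 168 ± 45.8 CPM in the same groups. The ratio of the sums was 4.63 to 6.97 in WT pools, 7.93 to 10.2 in crkeap1a and 7.19 to 12.4 in crkeap1b, with no overlap with WT. In the other 5 groups the ratio ran from 4.696 to 7.34, within or near the WT range, though the sums themselves differed. Type IV sums were at 145 to 171.6 CPM in WT and 172.3 to 231 CPM in Bach1 DKO pools. They were lower in crkeap1a/b (122 to 140 CPM) and Bach1 DKO crkeap1a/b (96.5 to 119.5 CPM). Nrf2 KO (124 to 134 CPM) and Nrf2 KO crkeap1a/b (102 to 139 CPM) also lay below WT. Fibrillar sums in Nrf2 KO (711 to 910 CPM) overlapped WT (795 to 1010 CPM). These sums are descriptions, and no test was made on them. They also rest on the TMM scaling, where a lower factor raises CPM. Factors were 0.60 to 0.82 in the single-crispant pools that stood apart and 0.98 to 1.07 in WT. Before this scaling, collagens were 0.139% of counts in crkeap1b pool 4, below the 0.157% to 0.189% of WT pools. In the other single-crispant pools they were 0.209% to 0.299%.

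**Figure D3:**
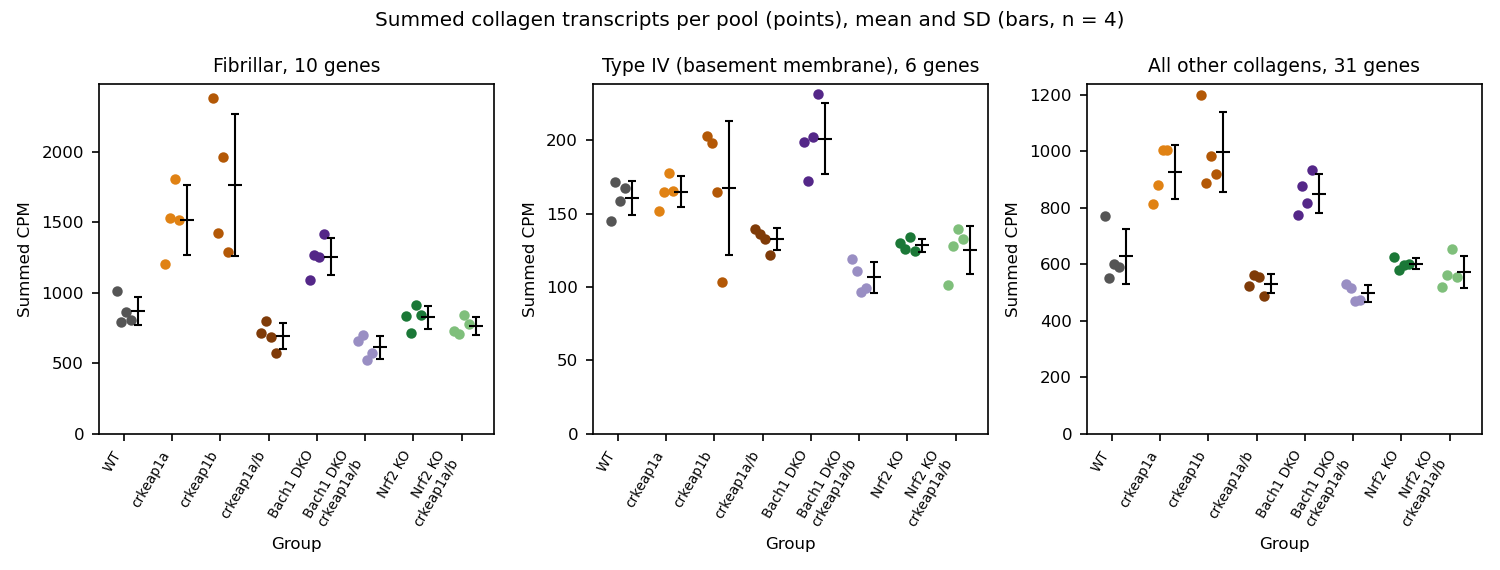
Summed CPM per pool (points) with mean and SD (bars, n = 4) for the 10 fibrillar, 6 type IV and 31 other collagen rows. After TMM scaling, fibrillar sums in all single-crispant and Bach1 DKO pools lie above the WT pools, and type IV sums overlap WT in both single crispants.

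Of the 26 tested collagens that are neither fibrillar nor type IV, 9 were higher in crkeap1a and 8 in crkeap1b, of which 6 in each were FACIT genes. Multiplexins carry the endostatin-like domains of types XV and XVIII. The col15a1a gene had 5, 3, 9 and 6 counts in the WT pools, 7, 20, 17 and 17 in crkeap1a and 16, 12, 20 and 14 in crkeap1b. It rose by 1.64 ± 0.49 (adjusted p = 0.0238) and 1.86 ± 0.49 (adjusted p = 0.00818) on the log2 scale, a call on few counts. For crkeap1a it was lost in 7 alternatives, among them leaving out WT replicate 1, 2 or 4 or crkeap1a replicate 2 or 3 (1.43 to 1.68). For col18a1a the WT pools spanned 15.6 to 31.7 CPM and the crkeap1a pools 27.2 to 45.0 CPM. That rise, 0.63 ± 0.21 (adjusted p = 0.0439), came with overlapping groups. Types VI, VII and the transmembrane collagens, 10 tested genes, had 0 called in either single crispant. At the shares of all rows called higher, 6.19% and 9.85%, so few genes cannot be set apart from the background. Among them col17a1a, the hemidesmosome collagen of basal skin cells, was at 78.3 to 150 CPM in WT and 111 to 169 CPM in crkeap1a (0.41 ± 0.18, adjusted p = 0.129).

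Editing of both paralogs together did not add up the single changes. In crkeap1a/b larvae 0 of 38 collagens were higher and 3 lower, against 3.35% and 1.94% of all rows, and by unadjusted p under 0.05 the counts were 1 and 9, against 9.66% and 8.6% of rows. All pools were above WT for 0 collagens and below for 6, against 6.09% and 6.33% of rows. The pools of col1a1b were at 106, 110, 105 and 88.4 CPM, all below the lowest WT pool (152 CPM). It fell by 0.80 on the log2 scale (SE 0.18, adjusted p = 0.00292, limma-voom). The FACIT gene col14a1b was at 17.7, 11.3, 15.5 and 15.9 CPM in WT and at 9.19, 5.23, 8.07 and 3.58 CPM in crkeap1a/b, with no overlap (-1.27 ± 0.32, adjusted p = 0.0105). The third was col4a5, at 15.4, 11.96, 16.9 and 10.7 CPM (-0.84 ± 0.26, adjusted p = 0.0454). That last call was lost in 9 alternatives, and without crkeap1a/b replicate 4 the count of lower collagens was 1, with col14a1b at -0.998 and not called. Of the 8 cartilage collagens 0 were called here, with 2 fold changes above 0 and 6 below. Their median log2 fold change was -0.205 (-0.863 to 0.15), beside -0.212 for the other 30. By unadjusted p under 0.05, 2 of the 8 were lower, and so few genes cannot be set apart from the share of rows. The col9a1a gene was at 17.6, 28.0, 21.4 and 22.2 CPM (-0.04 ± 0.21). All col2a1b pools (46.5 to 55.1 CPM) lay below the WT pools (64.9 to 90.1 CPM).

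The interaction of the 2 edits asks whether the double crispant differs from the sum of the single changes. Effects of the edits and of a batch cannot be told apart in it. The interaction was below 0 for 19 collagens and above 0 for 0, against 18.7% and 19.6% of all rows. The unadjusted counts were also 19 and 0, against 22.9% and 23.7%. All 8 cartilage collagens were among them, with a median of -3.01 on the log2 scale, beside a median of -0.59 for the other 30. That grouping was made after the single-crispant values were seen, and the interaction subtracts those values. The lower median therefore follows in part from the choice of genes and is no separate evidence. The largest values were those of col10a1a (-4.52 ± 0.52, adjusted p = 3.42e-08), col9a3 (-3.94 ± 0.38, adjusted p = 1.11e-09) and col9a1a (-3.47 ± 0.27, adjusted p = 9.04e-12). For col1a1b it was -3.40 ± 0.25. Within type IV, col4a5 passed (-2.02 ± 0.34), while col4a1 (0.22 ± 0.24) and col4a2 (-0.01 ± 0.28) did not. Without the pools that stood apart 1 crkeap1b pool was left, so this count cannot be judged that way.

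**Figure D4:**
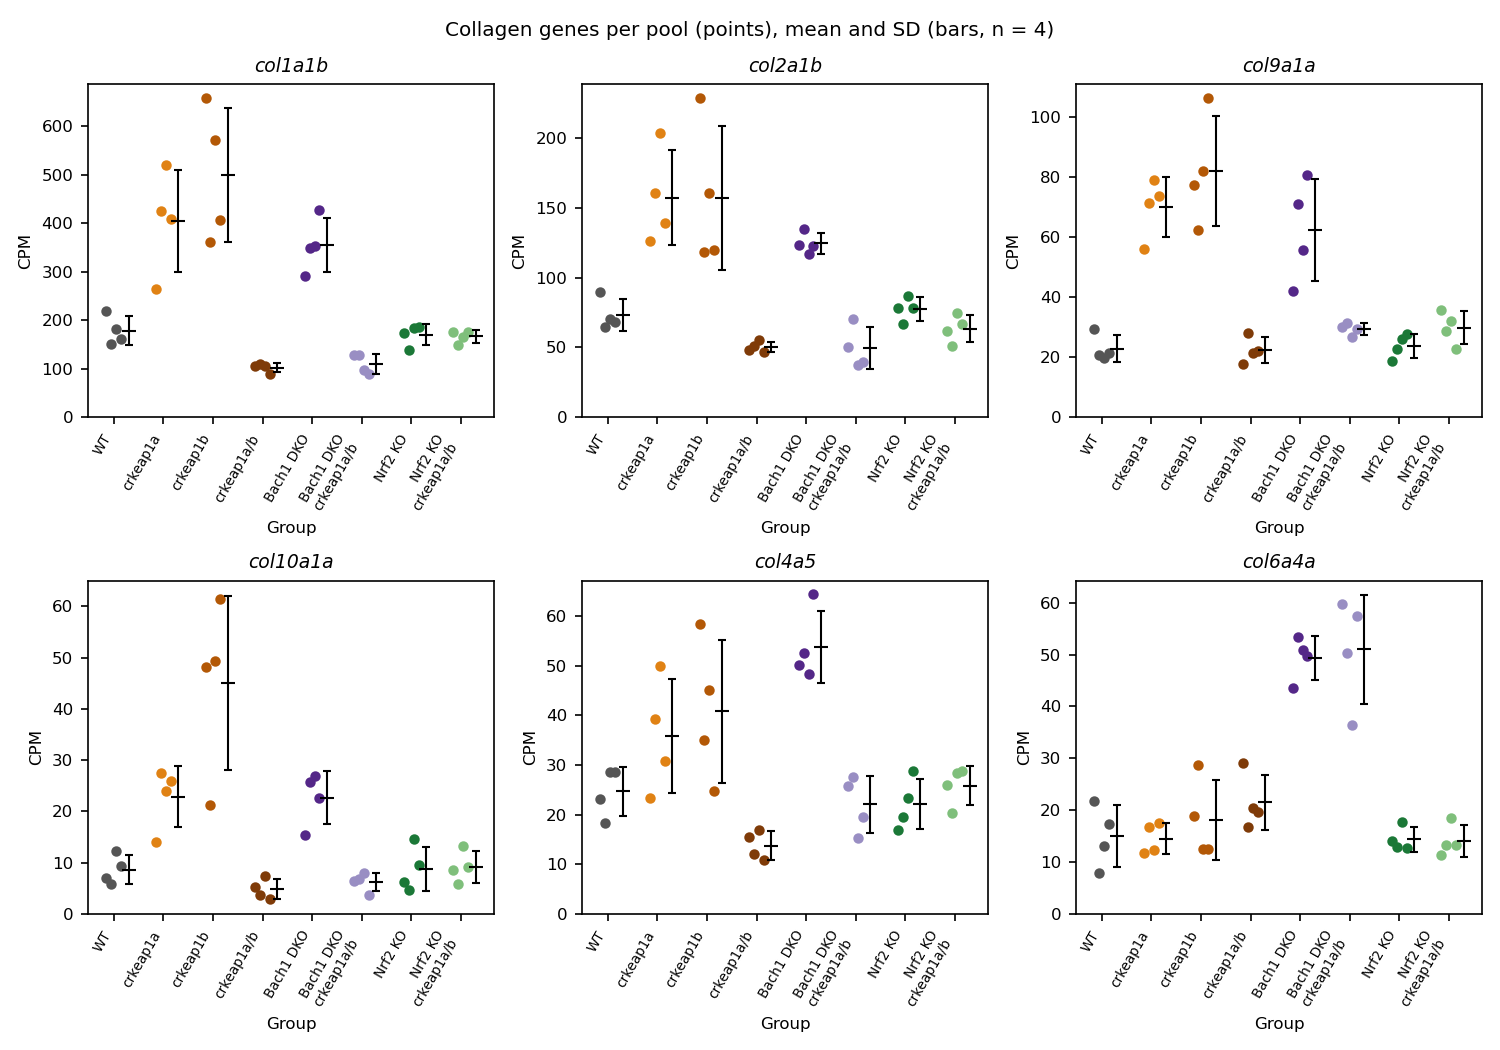
CPM of selected collagen genes in every pool (points), with mean and SD (bars, n = 4). For col1a1b the WT pools lie at 152 to 219 CPM, the single-crispant pools at 264.5 to 658 CPM and the crkeap1a/b pools at 88.4 to 110 CPM.

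Bach1 DKO larvae were compared with WT to describe the line before editing. Here 17 of 38 collagens were higher and 0 lower, against 11.8% and 11.6% of all rows, with a median log2 fold change of 0.58 beside 0.02 over all rows. By unadjusted p under 0.05 the counts were 22 and 2, against 18.2% and 17.3% of rows. Pools were entirely above WT for 14 collagens and entirely below for 0, against 13.5% and 14% of rows. The 17 genes include 5 of 8 fibrillar, 2 of 4 type IV and all 4 type IX genes. The pools of col1a1b were at 292.5, 350, 353 and 428.5 CPM, above every WT pool (0.99 ± 0.17, adjusted p = 8.06e-05). Its partner col1a2, at 211 to 305.5 CPM against 181 to 231 CPM, overlapped WT and was not called (0.37 ± 0.18). Whether col1a1b and col1a2 differ in response was not tested. The type IX genes col9a3 and col9a1a rose by 1.67 ± 0.28 and 1.42 ± 0.19.

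Type IV genes parted from each other in Bach1 DKO larvae. The col4a5 gene, which encodes a chain of the alpha 3, 4 and 5 and the alpha 5 and 6 networks, was at 50.1, 52.6, 48.3 and 64.4 CPM and rose by 1.13 ± 0.21 (adjusted p = 0.000188). Its neighbour col4a6 was at 61.5, 53.0, 73.8 and 67.9 CPM against 38.7 to 46.7 CPM in WT (0.53 ± 0.17, adjusted p = 0.0213). The neighbouring pair col4a1 and col4a2 gave -0.01 ± 0.16 and -0.43 ± 0.20, neither called. Summed type IV transcripts were at 201 ± 24.2 CPM (SD, n = 4).

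Outside these classes the largest rises were those of col6a4a and col25a1. The beaded filament gene col6a4a, of the type VI family, was at 21.7, 7.82, 12.99 and 17.4 CPM in WT and at 43.5, 53.4, 51.0 and 49.7 CPM in Bach1 DKO (1.79 ± 0.23, adjusted p = 6.59e-07). After editing of keap1a and keap1b in the line it was at 59.7, 50.3, 36.4 and 57.5 CPM, a change of 0.02 ± 0.19. The type VI chains col6a1 and col6a2 fell after that editing by 0.92 and 1.01 on the log2 scale. The transmembrane gene col25a1, known in mammals for its role in motor neurons, had 3, 1, 6 and 9 counts in WT and 14, 11, 20 and 21 counts in Bach1 DKO (2.14 ± 0.58, adjusted p = 0.00705).

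Collagens were widely lower after editing of both paralogs in the Bach1 DKO line. Compared with Bach1 DKO larvae, 23 of 38 were lower and 0 higher, against 11.7% and 13.7% of all rows, and by unadjusted p the counts were 26 and 0, against 18.6% and 18.5%. The median log2 fold change was -0.93, beside -0.05 over all rows. Fibrillar genes had a median of -1.09 (6 of 8 lower), type IV genes one of -1.14 (3 of 4 lower) and the other collagens one of -0.71 (14 of 26 lower). Thus all 3 classes shared the direction here. The groups did not overlap for 24 genes, all lower, against 17% of all rows lower and 17.1% higher without overlap. Of the 23 genes, 14 had been called higher in Bach1 DKO than in WT, and both comparisons share the Bach1 DKO pools. Relative to WT, the mean log2 CPM of the edited pools was -0.32 for fibrillar, -0.665 for type IV and -0.23 for other collagens. For the 8 cartilage collagens it was -0.03. The edited pools were not tested against WT.

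The pools of col1a1b in Bach1 DKO crkeap1a/b larvae were at 128, 128, 96.8 and 88.9 CPM, all under the lowest Bach1 DKO pool (-1.69 ± 0.18, adjusted p = 1.63e-09). Those of col1a2 were at 125.5, 134, 90.3 and 119 CPM (-1.14 ± 0.18). The col5a1 gene, uncalled in the comparisons with WT, was at 244, 246, 199.8 and 224 CPM here against 313, 363, 337 and 357 CPM in Bach1 DKO larvae. The groups did not overlap, and the change was -0.59 ± 0.17 (adjusted p = 0.00953). Type X col10a1a went from 15.4, 25.7, 26.8 and 22.7 CPM to 6.36, 6.73, 8.01 and 3.72 CPM (-1.84 ± 0.37, adjusted p = 0.000238). The cartilage collagens, grouped after their Bach1 DKO values were seen, were lower in 7 of 8 genes. The exception, col9a1b, gave -0.52 ± 0.29. Because the comparison subtracts those Bach1 DKO values, this count follows in part from the choice of genes and is no separate evidence.

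Type IV fell with them. The col4a2 gene went from 18.9, 16.1, 21.01 and 23.98 CPM to 11.3, 8.98, 12.4 and 6.61 CPM (-1.02 ± 0.24, adjusted p = 0.00144). The pair col4a5 and col4a6 changed by -1.30 ± 0.22 and -1.25 ± 0.18. For col4a1 the pools did not overlap, at 41.1 to 46.7 CPM against 48.6 to 67.1 CPM, but the test was not passed (-0.38 ± 0.17, adjusted p = 0.0966). The skin collagen col17a1a went from 92.1 to 111.5 CPM down to 50.4 to 70.7 CPM (-0.72 ± 0.19, adjusted p = 0.00418). The sum of basal epidermis markers fell in the same pools, from 398 to 707 CPM to 70.7 to 91.1 CPM, with 3 of 5 lower and 1 higher. Most of that fall lay in krt1-19e, from 331 to 2.74 CPM on average, and krt1-19d, from 68.7 to 4.36 CPM. The marker tp63 averaged 20.6 CPM before and 25.6 CPM after and was not called, and cldni was higher (1.61 ± 0.41). The part of these markers was not tested.

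The largest fitted falls were those of the scarce col25a1 and col7a1. The col25a1 gene had 6, 7, 0 and 0 counts in the edited pools against 14, 11, 20 and 21. Its fitted change was -3.29 ± 0.76 (adjusted p = 0.0013, limma-voom). With pools at 0 counts, that size depends on the small offset the fit adds before taking logs. The type VII gene col7a1, whose protein anchors the epidermis, had 7, 15, 19 and 16 counts before and 2, 4, 1 and 3 after editing (-2.58 ± 0.59, adjusted p = 0.00115). Both genes lie near the detection floor after editing.

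**Figure D5:**
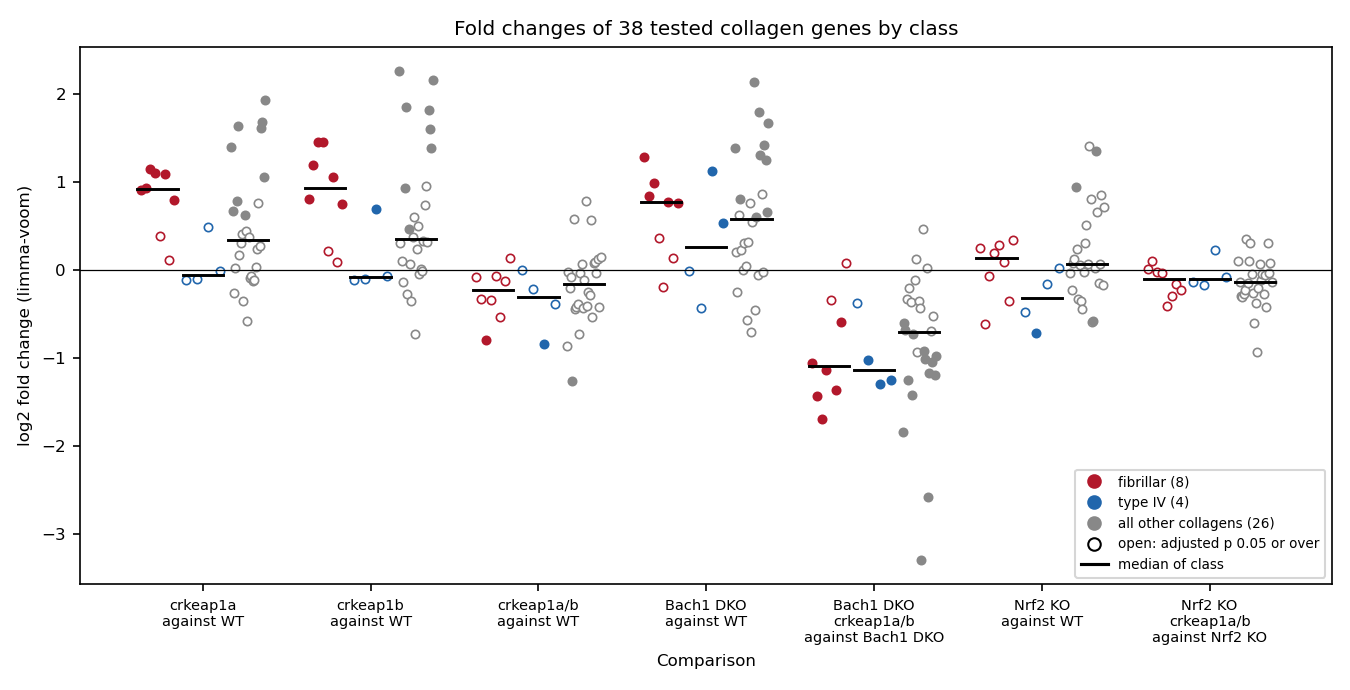
Each point is the log2 fold change of 1 of the 38 tested collagens in 1 of 7 comparisons, filled where the adjusted p was under 0.05, with the class median as a bar. In the single crispants the fibrillar median was 0.92 and 0.93 while that of type IV was -0.06 and -0.09, and after editing in Bach1 DKO larvae the medians were -1.09 and -1.14.

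The change after editing keap1a and keap1b was also set against the same editing in larvae with intact Bach1. This interaction was below 0 for 5 collagens and above 0 for 0, against 1.26% and 1.47% of all rows. They were col1a1b (-0.89 ± 0.25), col9a1a (-1.01 ± 0.28, adjusted p = 0.0406), col11a2 (-1.11 ± 0.31, adjusted p = 0.0397), col16a1 (-1.0 ± 0.24) and col25a1 (-4.07 ± 1.002, adjusted p = 0.0187). By unadjusted p it was below 0 for 17 and above for 0, against 8.18% and 8.92% of rows. The count is not firm: it fell to 1 without WT replicate 2 or without Bach1 DKO crkeap1a/b replicate 3, and rose to 12 when the fit used the compared groups alone.

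In Nrf2 KO larvae 2 of 38 tested collagens were higher than in WT and 2 lower, against 8.44% and 7.48% of all rows. By unadjusted p the counts were 5 and 6, against 14.9% and 13.7% of rows. Pools lay entirely above WT for 2 collagens and entirely below for 3, against 10.4% and 10% of rows. The FACIT gene col14a1b was at 24.7, 24.6, 36.5 and 31.4 CPM, above the WT pools (0.95 ± 0.24, adjusted p = 0.00549). The col7a1 gene had 20, 8, 12 and 12 counts against 10, 8, 8 and 2 in WT (1.35 ± 0.46, adjusted p = 0.0383). On the lower side, col4a2 was at 18.9, 19.5, 14.1 and 13.2 CPM against 22.4 to 30.1 CPM (-0.72 ± 0.21, adjusted p = 0.0174) and col6a2 at 21.3 to 28.6 CPM against 33.6 to 42.3 CPM (-0.58 ± 0.17, adjusted p = 0.0197). The type I gene col1a1b was at 174, 138, 183.5 and 185 CPM, within or near the WT range (-0.07 ± 0.17). The count was 2 without WT replicate 4, Nrf2 KO replicate 1 or Nrf2 KO replicate 4, and the col7a1 call was lost in 8 alternatives, at 0.86 without WT replicate 4. Leaving out WT replicate 1 or 4 or Nrf2 KO replicate 1 or 4 ended the col6a2 call (-0.56 to -0.52), and leaving out Nrf2 KO replicate 3 or 4 that of col4a2 (-0.67 and -0.62).

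Editing in the Nrf2 KO line left 0 of 38 collagens called in either direction by limma-voom, edgeR or DESeq2, against 0.716% of all rows higher and 0.0921% lower. By unadjusted p under 0.05 the counts were also 0, against 6.95% and 5.95% of rows. Pools lay entirely above for 0 collagens and entirely below for 2, against 5.93% and 6.01% of rows. The col1a1b pools were at 176, 148, 166 and 177 CPM (-0.03 ± 0.18) and those of col9a1a at 35.7, 28.8, 32.1 and 22.8 CPM (0.31 ± 0.22). The interaction of this editing with Nrf2 loss called 0 collagens, while 0.475% of all rows were called above 0 and 0.688% below. By unadjusted p under 0.05 it was above 0 for 5 collagens and below for 0, against 5.75% and 5.49% of rows. For col1a1b it was 0.78 ± 0.25 (adjusted p = 0.152), so its change in crkeap1a/b larvae was not shown to differ from that in the Nrf2 KO line.

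Paralogs from the genome duplication of bony fish can be read side by side, though differences between them were not tested and shared reads could be split by the counting. Of the type XIV pair, col14a1b was called in 6 of 7 pairwise comparisons and col14a1a in 0. In the type XV pair col15a1a was called in both single crispants, where col15a1b gave 0.17 ± 0.26 and -0.28 ± 0.29. The type XII gene col12a1a was higher in crkeap1a (0.67 ± 0.19), while col12a1b gave -0.26 ± 0.19. Both type XII genes were lower after editing in Bach1 DKO larvae (-0.60 ± 0.19 and -0.68 ± 0.20). In the type XVII pair col17a1b was called nowhere, at 3.86 to 11.8 CPM over the series.

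A total of 10 tested collagens were called in none of the 7 pairwise comparisons: col4a1, col8a2, col14a1a, col15a1b, col17a1b, col22a1, col23a1a, col23a1b, col27a1b and col28a2a. Except for col4a1, at 50.8 CPM, their mean levels ran from 3.24 CPM for col28a2a to 15.3 CPM for col27a1b.

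The enzymes and partners of collagen were examined from lists compiled from general knowledge. For all these lists the shares of all rows higher and lower were 6.19% and 6.98% in crkeap1a and 9.85% and 8.22% in crkeap1b. They were 11.8% and 11.6% in Bach1 DKO larvae, and 13.7% and 11.7% after editing in that line. Small counts in these lists cannot be set apart from such shares, and no test of a list as a whole was made. Of 19 tested genes of collagen synthesis and folding, 2 were higher and 1 lower in crkeap1a, and 4 and 1 in crkeap1b. Higher in both were serpinh1b, which encodes the collagen chaperone Hsp47 (1.44 ± 0.25 and 1.33 ± 0.25), and p4ha2, a prolyl hydroxylase subunit (0.87 ± 0.26 and 0.79 ± 0.27). In Bach1 DKO larvae 2 were higher and 3 lower, and after editing in that line 2 were higher and 2 lower. Nrf2 KO larvae had serpinh1b higher by 1.76 ± 0.24 with col1a1b near WT. Of 11 tested genes that process and crosslink collagen, 1 was lower and 0 higher in crkeap1a, loxl1, a lysyl oxidase relative (-1.52 ± 0.26), which was also lower in crkeap1b (-1.52 ± 0.27). In Bach1 DKO crkeap1a/b larvae 3 were lower and 0 higher, among them lox, the founding lysyl oxidase (-1.90 ± 0.57). The lox gene averaged 3.87 CPM before editing and 0.99 CPM after, near the detection floor. The related loxa averaged 5.02 CPM before and 9.09 CPM after and was not called.

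Among 16 fibril-associated proteins 3 were higher in crkeap1a and 6 in crkeap1b, with 0 and 1 lower. They include sparc, a collagen-binding matrix protein (1.07 ± 0.19 and 1.41 ± 0.19), and postnb, a periostin (0.64 ± 0.16 and 1.10 ± 0.16). In Bach1 DKO larvae 4 were higher and 1 lower, led by tnxba, a tenascin X (2.68 ± 0.47). The tnxba gene averaged 1.75 CPM in WT, near the detection floor, and 12.8 CPM in Bach1 DKO. After editing in that line 7 of 16 were lower and 0 higher, including fmoda, fibromodulin (-1.604 ± 0.26). Of 17 basement membrane partners, 1 was lower in crkeap1a and 3 in crkeap1b, 0 higher in either, and 6 were lower and 1 higher in Bach1 DKO crkeap1a/b larvae, among them hspg2, perlecan (-0.84 ± 0.15). Of 5 receptors, 1 was called in crkeap1b and 0 in the other pairwise comparisons. The list for collagen breakdown also holds timp genes, which encode inhibitors of matrix proteases. Of its 15 tested genes, 0 were called in either single crispant, while 4 rose and 2 fell after editing in Bach1 DKO larvae. An inhibitor gene was called on each side, timp2b higher and timp4.3 lower. The risers include ctsk, cathepsin K (2.79 ± 0.44), mmp9, a gelatinase (2.04 ± 0.42), and mmp13a, a collagenase (1.85 ± 0.49).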

How the data were processed

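The authors deposited raw read counts per gene, not normalized, from single-end QuantSeq 3′ libraries. Per the study's methods and the submitters' processing notes, they used FastQC 0.72, cutadapt 1.16, STAR 2.7.5b on GRCz11 (danRer11), featureCounts 1.6.3 and limma 3.40.6. How reads with several matches or their strand were counted is not given in the sources used here. Of 16825 rows, 786 have no Entrez ID and held 30.6% to 46.8% of the counts of a library. They were left out of library sizes and tests, since 1 such row took 28.0% to 40.6%. Symbols came from a RefSeq table of GRCz12tu, used for names and gene order only, and matched 15617 rows. RefSeq holds 60 collagen symbols, of which 13 matched no row. No collagen ID stands on more than 1 row.

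Groups came from sample titles. Rows were filtered with filterByExpr (minimum count 10, leaving 14108), scaled by TMM (edgeR 4.0.16) and fitted with limma-voom (limma 3.58.1, R 4.3.3) as 8 group means, with 24 residual degrees of freedom. P-values were two-sided and adjusted by Benjamini-Hochberg over all rows of a contrast (called: adjusted p under 0.05). Log2 CPM used a prior count of 2. Replicates differed by more than sampling noise (chi-square per degree of freedom 1.76 or more). Alternatives were other size factors, no filter, edgeR and DESeq2 1.42.0, quality weights, rows without ID, a replicate block, compared groups only and leaving out each pool.

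Genes named were, per comparison, the 4 called collagens with the largest rise and fall, up to 3 of each sign per interaction, a set of main chains, the 5 with the highest mean CPM, and up to 3 genes of each sign per list. Others were chosen after their values were seen. The collagens, classes and lists were chosen with earlier results of these data known. Cell type lists held 8 chondrocyte, 7 osteoblast, 8 fibroblast, 3 tenocyte, 6 basal epidermis and 5 endothelium names.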

Additional observations from a re-analysis of the deposited data

Results flagged for a closer look

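In 7 of 136 groups of 4 pools examined, 1 pool lay far from the other 3 by Dixon's ratio, and chance gives about 1 in 20. The col5a1 level was 251 CPM in Nrf2 KO crkeap1a/b replicate 3 (others 207 to 209 CPM), col4a2 was at 17.6 CPM in crkeap1b replicate 4 (others 25.9 to 27.9 CPM), col17a1a was at 60.9 CPM in Nrf2 KO replicate 3 (others 80.6 to 85.2 CPM), and col9a2 was at 144.9 CPM in crkeap1a replicate 1 (others 209 to 224 CPM). The mean log2 CPM relative to WT was -0.66 for type IV in Nrf2 KO crkeap1a/b replicate 1 (others -0.30 to -0.24). For collagens outside the fibrillar and type IV classes it was -0.25 in crkeap1a/b replicate 4 (others -0.14 to -0.13) and 0.36 in Bach1 DKO replicate 1 (others 0.57 to 0.58).

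A difference between groups in the response to the same edit, tested as an interaction in limma-voom, was passed for keap1a and keap1b editing by col10a1a (-4.52), col9a3 (-3.94) and col9a1a (-3.47), and for keap1a/b editing and Bach1 loss by col25a1 (-4.07), col11a2 (-1.11) and col9a1a (-1.01), all on the log2 scale.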

How the results depend on the processing

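Of 23 results for named collagens, 15 kept their call in every alternative run; over 372 alternatives 33 lost a call and 0 changed direction. Leaving out 1 pool at a time gave 11 to 16 collagens called in crkeap1a, 12 to 18 in crkeap1b, 1 to 3 in crkeap1a/b, 14 to 18 in Bach1 DKO, 21 to 23 after editing in Bach1 DKO, 2 to 5 in Nrf2 KO and 0 after editing in Nrf2 KO. For the interactions it gave 18 to 21 (keap1a and keap1b), 1 to 6 (Bach1) and 0 (Nrf2). The Bach1 interaction moved by over 1.5 times in 13 of 16 such fits. With quality weights it called 11 and with compared groups only 12, where the Nrf2 interaction called 1 and 2. Leaving out the single-crispant pools that stood apart was an alternative chosen after seeing the data. It left 1 crkeap1b pool, and the col10a1a and col15a1a calls were lost there. The number of collagens tested differs between alternative fits. Shares of all rows called in them are not given, so their counts are not set against a background. With a replicate block the counts were 14, 15, 2, 17, 24, 3 and 0 for the pairwise comparisons and 19, 5 and 0 for the interactions. In no comparison did every same-numbered pair correlate above 0.1, so the block was not taken as a pairing. The nearest was Bach1 DKO crkeap1a/b with Bach1 DKO (0.075 to 0.156, mean 0.128 against -0.043 for other pairs) with 3 of 4 pairs above 0.1, and in the other comparisons pairs ran from -0.12 to 0.134. The causes were not tested. In the fits on compared groups only, col15a1a (crkeap1a) and col7a1 did not pass the filter and gave no value. Depth limits what can be said of collagens below about 10 CPM.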

Other observations

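Markers of other cell types were also read in the same pools. Shares of all rows higher and lower were 6.19% and 6.98% in crkeap1a, and 9.85% and 8.22% in crkeap1b. They were 3.35% and 1.94% in crkeap1a/b, and 11.8% and 11.6% in Bach1 DKO larvae. After editing in Bach1 DKO larvae they were 13.7% and 11.7%. Of 7 tested fibroblast markers, 1 was higher in crkeap1a and 3 in crkeap1b, with 0 lower. In Bach1 DKO larvae 1 was higher and 1, pdgfra, lower (-0.58 ± 0.20), in crkeap1a/b 1 was higher and 2 lower, and after editing in Bach1 DKO larvae 1 was higher and 3 lower. Their sum ran at 260 to 292 CPM in WT, 273 to 377 CPM in crkeap1a and 352 to 431 CPM in crkeap1b. Of 3 tenocyte markers, tnmd, a tendon membrane protein, was higher in Bach1 DKO larvae (1.38 ± 0.19), and 2 were lower after editing in that line, with sums of 89.0 to 105 CPM before and 20.8 to 45.5 CPM after. In Nrf2 KO larvae 2 of the 3 were higher, kera (0.84 ± 0.25) and tnmd (0.75 ± 0.20), against 8.44% of all rows. The tenocyte sum there was 79.6 to 116 CPM, and 37.1 to 81.8 CPM in WT. Of 4 tested endothelium markers, 0 were higher in any of the 7 pairwise comparisons. The gene cdh5, an endothelial cadherin, was lower in crkeap1a (-0.86 ± 0.23) and in crkeap1b (-0.80 ± 0.24). Another, pecam1a, was lower in Bach1 DKO larvae (-0.68 ± 0.23). In Nrf2 KO larvae basal epidermis markers summed to 905 to 1283 CPM, above the 230 to 349 CPM of WT, but only 1 of 5 was called, krt1-19e (2.88 ± 0.28), which averaged 891 CPM of that sum, and the list's median log2 fold change was 0.23. In the same larvae col17a1a was at 60.9 to 85.2 CPM against 78.3 to 150 CPM. The part of these markers in any collagen result was not tested.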
